A study of Mus musculus with 24 samples.

Results

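The 10 genes described here belong to the cell junctions that couple heart muscle cells, and were followed through RNA sequencing of 24 mouse heart libraries. The set holds 3 connexins (Gja1, Gja5, Gjc1), 5 desmosome genes (Dsp, Dsg2, Dsc2, Pkp2, Jup) and 2 adherens junction genes (Cdh2, Ctnna3), chosen by name. All 10 were found by Ensembl identifier among the 43432 gene rows of the count table, and all 10 passed the filter on low counts in every comparison. The libraries form 6 groups of 4 from C57BL/6 mice. Sedentary mice are the controls for mice with wheel running (8 weeks of exercise). Mice with transverse aortic constriction (TAC), an operation that narrows the aorta and puts a pressure load on the left ventricle, were taken at 2 weeks (a group labelled LVH) or at 8 weeks (labelled HF). A sham-operated group carries the same LVH or HF label, and is called the 2-week or 8-week sham here. The labels give no sex, no age, no time after sham surgery and no statement that a library is a single animal, so p-values measure the spread between libraries, which may be technical.

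The intercalated disc is the end-to-end contact between cardiomyocytes. Desmosomes anchor the intermediate filaments of neighbouring cells to each other: the cadherins desmoglein-2 (Dsg2) and desmocollin-2 (Dsc2) bridge the gap, plakoglobin (Jup) and plakophilin-2 (Pkp2) bind their tails, and desmoplakin (Dsp) links this plaque to desmin. Adherens junctions tie actin to N-cadherin (Cdh2) through catenins, among them αT-catenin (Ctnna3). Gap junctions are channels built of connexins: Gja1 encodes the main connexin of the working ventricle, Gja5 that of atria, the fast conduction system and arterial endothelium, and Gjc1 a connexin of the nodes and the embryonic heart. Inherited variants of the human desmosome genes are a known cause of arrhythmogenic cardiomyopathy.

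Total counts per library ranged from 16802939 to 39512101, and mitochondrially encoded genes took 50.7% to 73.6% of them. That share was 50.7% to 58.4% in the 2-week TAC libraries against 59.8% to 64.5% in their shams, and 52.7% to 57.6% in the 8-week TAC libraries against 61.3% to 67.0% in theirs, with no overlap. The smallest count of any of the 10 genes was 31, for Gja5. The cardiomyocyte gene Myh6 stood at 5410 to 12100 normalized counts in group means, as the heart label implies. The atrial genes Sln and Myl7 stood at 0.982 to 2.03 and 3.59 to 5.99, but do not stand for all 13 atrial genes listed. The 13 summed to 313 to 357 in group means without TAC, and to 1090 and 925 after 2 and 8 weeks of TAC. Normalized counts are library-size-adjusted counts (CPM) after TMM scaling, a method that sets the typical gene to no change. In such bulk RNA, fewer cells of a type and less RNA per cell cannot be told apart.

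Desmoplakin was the most abundant of the 10 transcripts and connexin Gja5 the least. Per kilobase of exon, the mean over the 24 libraries was 80.5 CPM for Dsp, 16.2 for Cdh2, 12.5 for Gja1, 10.9 for Pkp2, 10.6 for Jup, 4.49 for Ctnna3, 4.26 for Dsg2, 3.79 for Dsc2, 1.56 for Gjc1 and 0.489 for Gja5. With the length of the principal transcript alone, Gja1 (40.4 CPM per kilobase) came before Cdh2 (26.9) and Jup (21.2) before Pkp2 (20.1), and the other 6 kept their places. Libraries of a group differed most for Gja1, whose SD reached 39.9% of the mean in the running group.

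**Figure D1:**
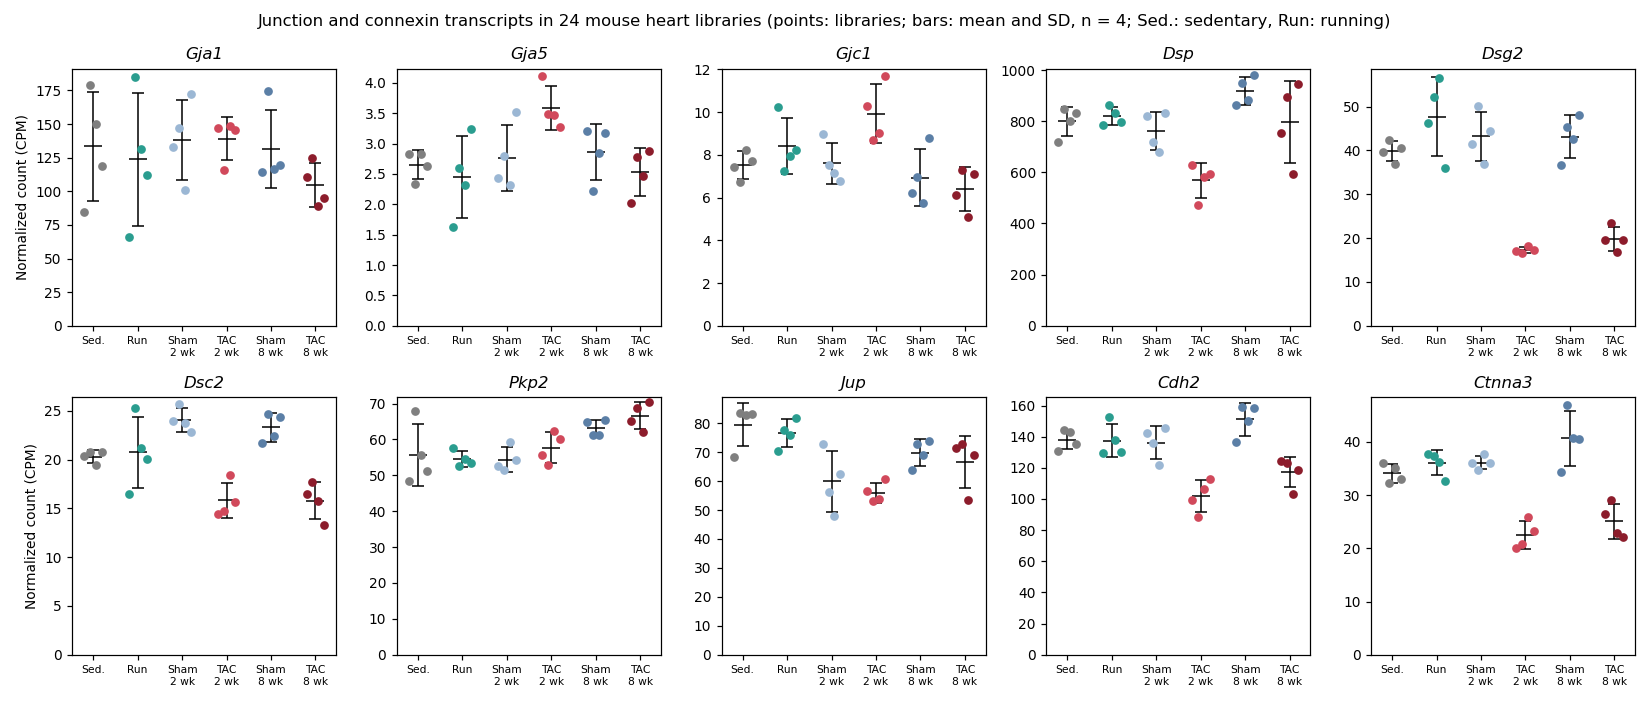
Normalized counts (CPM, vertical axes from 0) of each gene in the 24 libraries, by group; points are libraries, bars are the mean and SD of 4. The Dsg2 points of both TAC groups lie between 16.6 and 23.4, below every other library, while the Pkp2 and Gja1 points of TAC and sham overlap.

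After 2 weeks of TAC, 5 of the 10 transcripts were lower than in sham (Dsg2, Ctnna3, Dsc2, Dsp and Cdh2), 1 was higher (Gjc1), and 4 did not pass the test (Gja1, Gja5, Pkp2, Jup). Of all 14224 genes tested, 16.1% were called lower and 17.1% higher. After 8 weeks 4 were lower (Dsg2, Ctnna3, Dsc2, Cdh2) and none higher, where 14.7% and 14.9% of 13621 genes were called lower and higher. A call is an adjusted p under 0.05 in the quasi-likelihood test of edgeR, adjusted over all genes tested. The median log2 fold change of the 10 genes was -0.25 at 2 weeks and -0.27 at 8 weeks, beside 0.00 for all genes at both stages. After wheel running none of the 10 passed, nor had any an unadjusted p under 0.05, and 0% of 13824 genes were called higher or lower by edgeR. Over all genes 665 had an unadjusted p under 0.05, and DESeq2 called 4 higher and 5 lower, none of them among the 10.

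**Figure D2:**
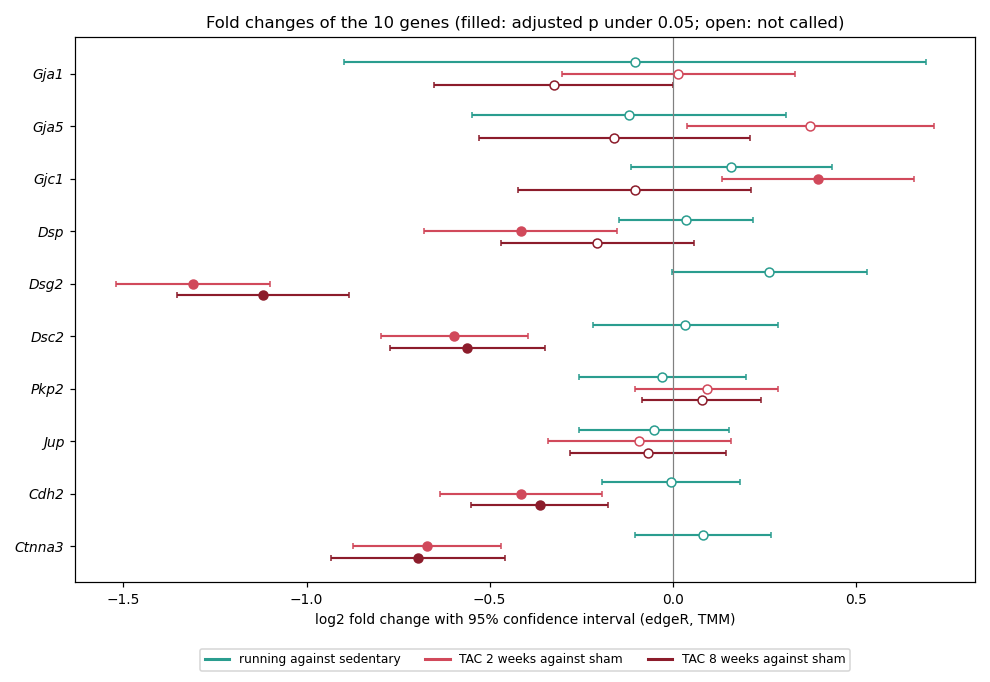
Log2 fold change of each gene with its 95% confidence interval in the 3 comparisons, 4 libraries against 4 in each; filled points passed an adjusted p of 0.05. The Dsg2 interval ends at -1.10 at 2 weeks and at -0.89 at 8 weeks, and all 10 intervals for running include 0.

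The desmosomal cadherin Dsg2 had the largest fold change of the 10 genes. At 2 weeks its normalized counts were 41.5, 50.2, 36.9 and 44.4 in the sham libraries and 17.2, 16.6, 18.2 and 17.3 in the TAC libraries. The TAC libraries lay close together (SD 0.665) and far below the lowest sham. The level was 2.48-fold lower (log2 fold change -1.31, SE 0.10, edgeR adjusted p = 1.51e-06). At 8 weeks the sham libraries read 36.6, 45.3, 42.5 and 48.0 and the TAC libraries 19.6, 23.4, 16.8 and 19.6. Again the groups did not overlap, and the level was 2.17-fold lower (log2 fold change -1.12, SE 0.11, edgeR adjusted p = 9.32e-06). Sedentary libraries (39.6, 42.4, 36.9 and 40.5) lay within the range of the shams. Running libraries were 46.3, 52.2, 56.6 and 35.9, so that 3 lay above all sedentary libraries and 1 below them, and the log2 difference of 0.26 (SE 0.12) did not pass (edgeR adjusted p = 1). Dsg2 shares 330 exon bases (4% of its exons) with the antisense gene Gm16090 on the other strand, which holds 47 counts in all libraries against 19626 for Dsg2.

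Its partner cadherin Dsc2 also fell, with a smaller fold change. At 2 weeks Dsc2 read 24.0, 25.7, 23.7 and 22.8 in sham and 14.5, 14.8, 18.4 and 15.7 after TAC, with no overlap (1.51-fold lower, log2 fold change -0.60, SE 0.09, edgeR adjusted p = 3e-04). That call ended with library totals (-0.19, edgeR adjusted p = 0.186) and with scaling to cardiomyocyte genes (-0.08, edgeR adjusted p = 0.488). At 8 weeks it read 21.7, 24.7, 22.4 and 24.4 in sham and 16.5, 17.7, 15.8 and 13.2 after TAC, also with no overlap (1.48-fold lower, log2 fold change -0.56, SE 0.10, edgeR adjusted p = 0.000903). The effects at the 2 stages differed by 0.04 (95% interval -0.24 to 0.32), and running (log2 0.03, 95% interval -0.22 to 0.29) did not pass the test. A ratio within a library does not depend on how libraries are scaled. For every 100 counts of Dsc2 there were 179 ± 19.2 counts of Dsg2 in the 2-week shams and 110 ± 8.26 after TAC (SD, n = 4), and 185 ± 12.1 and 126 ± 17.7 at 8 weeks. TAC libraries lay below all shams at both stages, so the balance of the 2 cadherin transcripts moved away from Dsg2. These ratios were chosen after values had been seen and carry no test. Against Pkp2, the plaque gene with the smallest range of group means, Dsg2 went from 80.2 ± 14.5 to 30.1 ± 1.32 per 100 counts at 2 weeks and from 68.4 ± 8.15 to 29.7 ± 3.2 at 8 weeks (SD, n = 4), also without overlap.

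**Figure D3:**
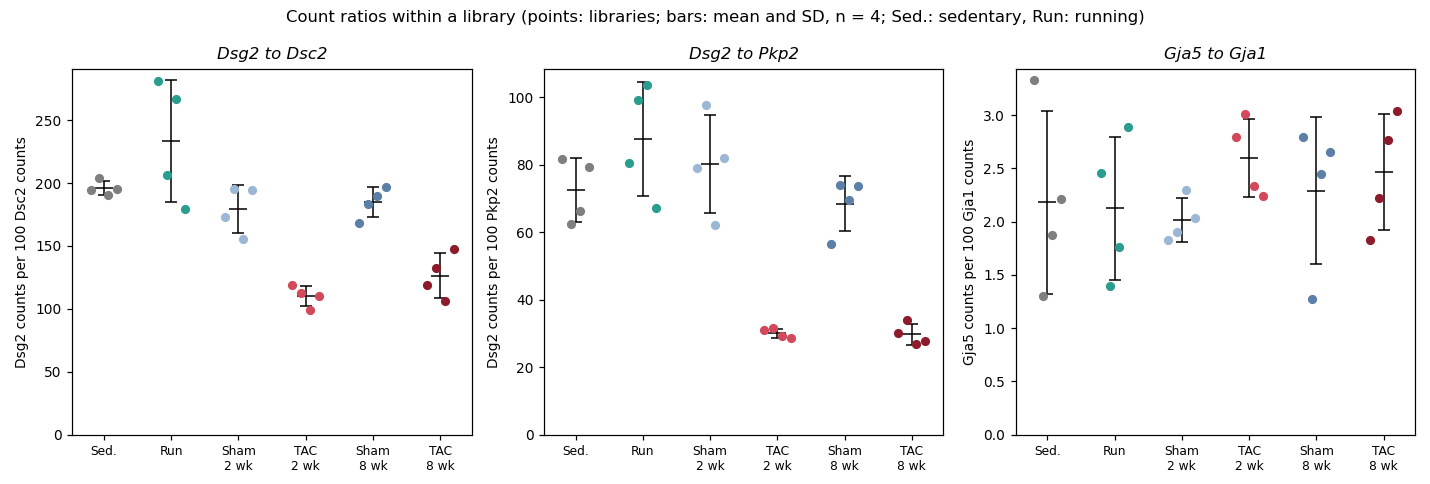
Counts of Dsg2 per 100 counts of Dsc2 or Pkp2, and of Gja5 per 100 counts of Gja1, in each library (points) with the mean and SD of 4 (bars). In the first 2 panels the TAC libraries lie below all sham libraries of their stage, and in the Gja5 panel the groups overlap.

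The 3 plaque genes differed among themselves. Desmoplakin (Dsp) read 821, 719, 681 and 830 in the 2-week shams and 630, 471, 582 and 594 after TAC. Every TAC library lay below every sham library, and Dsp was 1.33-fold lower (log2 fold change -0.42, SE 0.12, edgeR adjusted p = 0.0178), but the sign turned with library totals (0.01) and with scaling to cardiomyocyte genes (0.10). The call was lost without sham replicate 4 (edgeR adjusted p = 0.0596) and without TAC replicate 2 (edgeR adjusted p = 0.0571). At 8 weeks Dsp read 862, 949, 882 and 980 in sham and 754, 894, 592 and 947 after TAC. These groups overlapped, TAC replicate 3 was the lowest, and the log2 difference of -0.21 (95% interval -0.47 to 0.06) did not pass (edgeR adjusted p = 0.226). Its sign also turned with library totals (0.14) and with scaling to cardiomyocyte genes (0.05), without a call. Dsp shares 499 exon bases (5.2%) with Gm10129 on the other strand, which holds 316 counts in all against 441716 for Dsp.

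Plakophilin-2 (Pkp2) had the smallest range of group means of the 10 genes, from 54.4 to 66.6. It read 52.5, 51.5, 59.3 and 54.2 in the 2-week shams and 55.6, 52.8, 62.4 and 60.2 after TAC. In the 8-week libraries Pkp2 read 64.7, 61.2, 61.3 and 65.3 in sham and 65.2, 68.7, 62.2 and 70.5 after TAC. Groups overlapped at both stages, and the log2 differences were 0.09 (95% interval -0.10 to 0.29) and 0.08 (-0.08 to 0.24), so a fall of the size seen for Dsg2 lies outside both intervals. With library totals and with cardiomyocyte genes as the scale, Pkp2 was called higher at 2 weeks (0.50 and 0.61) and at 8 weeks (0.41 and 0.34). Plakoglobin (Jup) read 72.8, 56.2, 48.1 and 62.6 in the 2-week shams and 56.4, 53.1, 53.7 and 60.7 after TAC. The 8-week values of Jup were 63.7, 72.9, 69.0 and 73.7 in sham and 71.3, 72.7, 53.5 and 69.0 after TAC. TAC libraries lay within the sham range at 2 weeks and 3 of 4 did at 8 weeks, with log2 differences of -0.09 (-0.34 to 0.16) and -0.07 (-0.28 to 0.15). The sign turned under both other scalings, at 2 weeks (0.33 and 0.43) and, without a call, at 8 weeks (0.27 and 0.19). For Pkp2 and Jup the edgeR adjusted p lay between 0.466 and 0.649 at the 2 stages.

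Promoter windows from RefSeq (build GRCm38.p6, from 250 bases before to 50 after the start) were matched for 5 of the 10 genes, and 3 are shown because they set genes that fell at 2 weeks beside a plaque gene that did not pass. These are Dsp (chr13:38151044-38151343, plus strand), Ctnna3 (chr10:63429848-63430147, plus strand, the first of its 3 windows) and Jup (chr11:100397741-100398040, minus strand), each written 5′ to 3′ along the transcript. Capitals mark the GC box GGGCGG and the T-box core GGTGTG on either strand.
Dsp: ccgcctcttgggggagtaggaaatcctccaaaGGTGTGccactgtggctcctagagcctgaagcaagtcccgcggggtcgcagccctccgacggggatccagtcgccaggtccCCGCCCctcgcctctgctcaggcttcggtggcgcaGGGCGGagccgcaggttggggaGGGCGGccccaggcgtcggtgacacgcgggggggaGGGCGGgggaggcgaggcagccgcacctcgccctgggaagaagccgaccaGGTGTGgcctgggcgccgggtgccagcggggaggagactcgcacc
Ctnna3: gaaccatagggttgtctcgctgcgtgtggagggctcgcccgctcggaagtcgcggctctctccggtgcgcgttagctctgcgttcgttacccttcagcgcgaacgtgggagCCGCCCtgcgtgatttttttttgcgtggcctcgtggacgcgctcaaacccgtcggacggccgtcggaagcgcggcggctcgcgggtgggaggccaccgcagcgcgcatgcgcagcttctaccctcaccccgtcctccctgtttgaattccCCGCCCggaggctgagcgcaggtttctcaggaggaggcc
Jup: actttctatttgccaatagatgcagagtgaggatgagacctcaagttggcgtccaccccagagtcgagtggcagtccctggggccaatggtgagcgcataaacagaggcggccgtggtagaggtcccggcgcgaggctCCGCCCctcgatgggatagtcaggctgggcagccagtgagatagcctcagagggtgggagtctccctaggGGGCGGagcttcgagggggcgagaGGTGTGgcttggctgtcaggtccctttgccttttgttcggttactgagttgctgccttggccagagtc
The GC box was found 4 times in the Dsp window, 2 times in that of Ctnna3 and 2 times in that of Jup, and in 35.7% of all 32851 windows of the same length. The T-box core was found 2 times for Dsp, 1 time for Jup and 0 times for Ctnna3, and in 19% of all windows. The GC content was 73% for Dsp, 67% for Ctnna3 and 60.7% for Jup, against a median of 52.7%. A search on both strands for the muscle motif CATTCC (in 14.7% of all windows), the GATA factor motif AGATAA (11.2%), the AP-1 motif TGANTCA (7.8%), the core promoter motif TATAAA (13.6%) and the CArG box (1.6%) gave no match in these 3 windows, which says only that the letters are not there. An E-box (CANNTG), present in 72.3% of windows, was found 1 time for Dsp, where it overlaps the downstream T-box match. Of the Ctnna3 windows not shown, window 2 held CATTCC 1 time, and window 3 held TATAAA 1 time and an E-box 2 times.

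Both adherens junction genes fell after TAC. N-cadherin (Cdh2) read 142, 136, 122 and 145 in the 2-week shams and 99.1, 88.6, 107 and 113 after TAC. The groups did not overlap, and Cdh2 was 1.33-fold lower (log2 fold change -0.41, SE 0.10, edgeR adjusted p = 0.00689), but the value was 0.0007 with library totals and 0.10 with scaling to cardiomyocyte genes. At 8 weeks Cdh2 read 137, 159, 150 and 158 in sham and 125, 123, 103 and 119 after TAC, without overlap (1.29-fold lower, log2 fold change -0.36, SE 0.09, edgeR adjusted p = 0.00661). Here the sign stayed negative under those scalings (-0.03 and -0.10) but did not pass. With a covariate for library numbers above or below the median, the edgeR adjusted p of Cdh2 at 8 weeks was 0.055. The 8-week shams were libraries 17, 22, 23 and 24 and the TAC libraries 18 to 21, so this covariate largely followed the groups. With it the calls over all genes went from 2032 higher and 2000 lower to 1278 and 1261.

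αT-catenin (Ctnna3), which joins N-cadherin complexes to actin and binds Pkp2, fell as well, with a larger fold change than Cdh2. It read 36.0, 34.7, 37.6 and 36.0 in the 2-week shams and 20.1, 20.9, 26.0 and 23.3 after TAC. At 8 weeks it read 34.3, 47.0, 40.8 and 40.5 in sham and 26.4, 29.1, 22.8 and 22.1 after TAC. No library crossed between groups at either stage. The level was 1.59-fold lower at 2 weeks (log2 fold change -0.67, SE 0.09, edgeR adjusted p = 0.000137) and 1.62-fold lower at 8 weeks (log2 fold change -0.70, SE 0.11, edgeR adjusted p = 0.000439). For every 100 Cdh2 counts there were 26.6 ± 2.86 Ctnna3 counts in the 2-week shams and 22.2 ± 2.01 after TAC, and 26.9 ± 1.98 and 21.4 ± 2.11 at 8 weeks (SD, n = 4), with no overlap at either stage. Against αE-catenin (Ctnna1), its relative found in most cell types, the ratio went from 21.1 ± 1.33 to 18.1 ± 2.42 and from 21.6 ± 1.8 to 17.8 ± 2.06 per 100 counts, and the groups overlapped. Lrrtm3 lies inside an intron of Ctnna3 on the other strand and shares no exon base with it. Its own level was 4.47 to 6.91 CPM in the 2-week shams and 2.82 to 3.40 after TAC, and 3.67 to 6.15 and 1.85 to 2.45 at 8 weeks (n = 4).

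Of the 3 connexins, 1 passed with TMM at 2 weeks (Gjc1, higher) and 0 at 8 weeks. With library totals and with cardiomyocyte genes as the scale, all 3 were called higher at 2 weeks. The log2 values were 0.44 and 0.53 for Gja1, 0.80 and 0.90 for Gja5, and 0.82 and 0.91 for Gjc1. Gja1, the main ventricular connexin, read 133, 147, 101 and 172 in the 2-week shams and 147, 116, 149 and 146 after TAC. At 8 weeks it read 115, 174, 116 and 120 in sham and 110, 125, 89.1 and 94.8 after TAC. The 2-week TAC libraries lay within the sham range, while at 8 weeks 3 of 4 TAC libraries lay below all shams. The log2 differences were 0.02 (95% interval -0.30 to 0.33) and -0.33 (-0.65 to 0.00), and neither passed (edgeR adjusted p = 0.948 and 0.125). Sedentary libraries read 84.9, 179, 150 and 119 and running libraries 66.1, 185, 131 and 112, a spread so wide that the running difference (log2 -0.10) has an interval from -0.90 to 0.69.

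Gjc1 was the member called higher at 2 weeks with TMM. It read 8.95, 7.54, 7.13 and 6.75 in sham and 10.3, 8.71, 9.02 and 11.7 after TAC. Of the 4 TAC libraries 3 lay above all shams, and the level was 1.32-fold higher (log2 fold change 0.40, SE 0.12, edgeR adjusted p = 0.0224). The call was lost without sham replicate 2, sham replicate 4 or TAC replicate 4, with edgeR adjusted p of 0.0544, 0.0701 and 0.0903. At 8 weeks Gjc1 read 6.22, 6.98, 5.75 and 8.80 in sham and 6.14, 7.30, 5.09 and 7.12 after TAC, which overlapped (log2 -0.10, 95% interval -0.42 to 0.21, edgeR adjusted p = 0.639). The 8-week sign turned with library totals (0.24) and with scaling to cardiomyocyte genes (0.15), without a call.

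Gja5 was the member with the fewest counts, 31 to 118 per library. It read 2.44, 2.79, 2.32 and 3.52 in the 2-week shams and 4.11, 3.48, 3.47 and 3.27 after TAC. The groups overlapped through sham replicate 4, and the log2 difference of 0.38 (95% interval 0.04 to 0.71) did not pass (edgeR adjusted p = 0.0829, and 0.0203 without that library). At 8 weeks it read 3.20, 2.22, 2.85 and 3.17 in sham and 2.01, 2.78, 2.46 and 2.88 after TAC (log2 -0.16, 95% interval -0.53 to 0.21, edgeR adjusted p = 0.519). That sign turned with library totals (0.17) and with scaling to cardiomyocyte genes (0.10), without a call. Gja5 shares 165 exon bases (2.9%) with Gpr89 on the other strand, whose 4658 counts exceed the 1638 of Gja5, and the strand setting of the counting is not given in the sources used here. Gpr89 read 7.87 to 10.2 CPM in the 2-week shams and 6.21 to 9.33 after TAC (n = 4). Over 10 arterial endothelial markers, among which Gja4 is another connexin, the summed level was 165 to 184 CPM in the 2-week shams and 222 to 236 after TAC, with 4 of 10 called higher. Over 14 conduction system markers it was 29.0 to 35.5 and 28.0 to 31.3. Their part in the connexin values was not tested.

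Of the counts of the 3 connexins, Gja1 held 90.8% to 92.9% in the 6 group means, Gjc1 5.02% to 7.28% and Gja5 1.87% to 2.37%. In the 2-week libraries the Gja1 share was 92.8% ± 1.32 in sham and 91.1% ± 0.798 after TAC, and the Gja5 share 1.87% ± 0.182 and 2.37% ± 0.325 (SD, n = 4). The ranges of sham and TAC overlapped for all 3 shares, so the connexin mix did not separate the groups. Per kilobase of exon, the Gja1 share was 83.4% to 86.9% in group means and that of Gjc1 9.61% to 13.5%.

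How the libraries are scaled decides the sign of several of these values. In the TAC libraries fibroblast and macrophage markers took more of the RNA: the summed level of 14 fibroblast genes was 1160 to 1450 CPM in the 2-week shams and 2920 to 4150 after TAC (13 called higher), and that of 12 macrophage genes 143 to 218 and 283 to 368 (11 called higher). The summed level of 25 cardiomyocyte genes was 66600 to 74900 in the 2-week shams and 44600 to 52700 after TAC, with 17 called lower. At 8 weeks it was 71100 to 74600 and 55700 to 64300, with 4 called higher and 7 lower. No gene of these lists was at 0 in all 24 libraries, and their part in the fold changes of the 10 genes was not tested.

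Scaled to the summed cardiomyocyte genes, the median of all genes shifted by 0.52 (log2) at 2 weeks and 0.27 at 8 weeks, and with library totals by 0.41 and 0.33. At 2 weeks both scalings called 5 of the 10 genes higher (Gja1, Gja5, Gjc1, Pkp2, Jup) and 1 lower (Dsg2). Over all genes the calls then went from 2428 higher and 2289 lower to 6995 and 614 with library totals, and to 8857 and 426 with cardiomyocyte genes. Dsg2 stayed lower under both, by -0.90 and -0.79 at 2 weeks and by -0.78 and -0.86 at 8 weeks, with edgeR adjusted p from 4.31e-06 to 5.25e-05. Ctnna3 was still called lower at 8 weeks (-0.36 and -0.44) but not at 2 weeks (-0.27 and -0.15). Dsc2 was called at 8 weeks with cardiomyocyte genes (-0.30, edgeR adjusted p = 0.0307) and not with library totals (-0.23, edgeR adjusted p = 0.0805). Ratios to Pkp2 within a library are not moved by scaling, but they move with Pkp2 itself. Pkp2 has the smallest range of TMM group means among the 10 genes, and was called higher under both other scalings. A lower ratio can thus come from Pkp2 as well as from the other gene. The ratios were lower in all 4 TAC than in any sham library at both stages for Dsg2, Dsc2, Cdh2 and Ctnna3. At 2 weeks this also held for Dsp, while ratios of Jup and the 3 connexins overlapped. The share of all genes with such a fall was not computed. For Ctnna3 the mean ratio went from 66.5 ± 2.22 to 39.0 ± 2.23 per 100 Pkp2 counts at 2 weeks and from 64.6 ± 9.89 to 37.7 ± 4.89 at 8 weeks (SD, n = 4). For Cdh2 it went from 252 ± 31.2 to 176 ± 8.42 and from 240.0 ± 20.7 to 176 ± 11.7 (SD, n = 4). At 8 weeks the calls over all genes were 2032 higher and 2000 lower with TMM, 6075 and 568 with library totals and 4931 and 755 with cardiomyocyte genes.

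**Figure D4:**
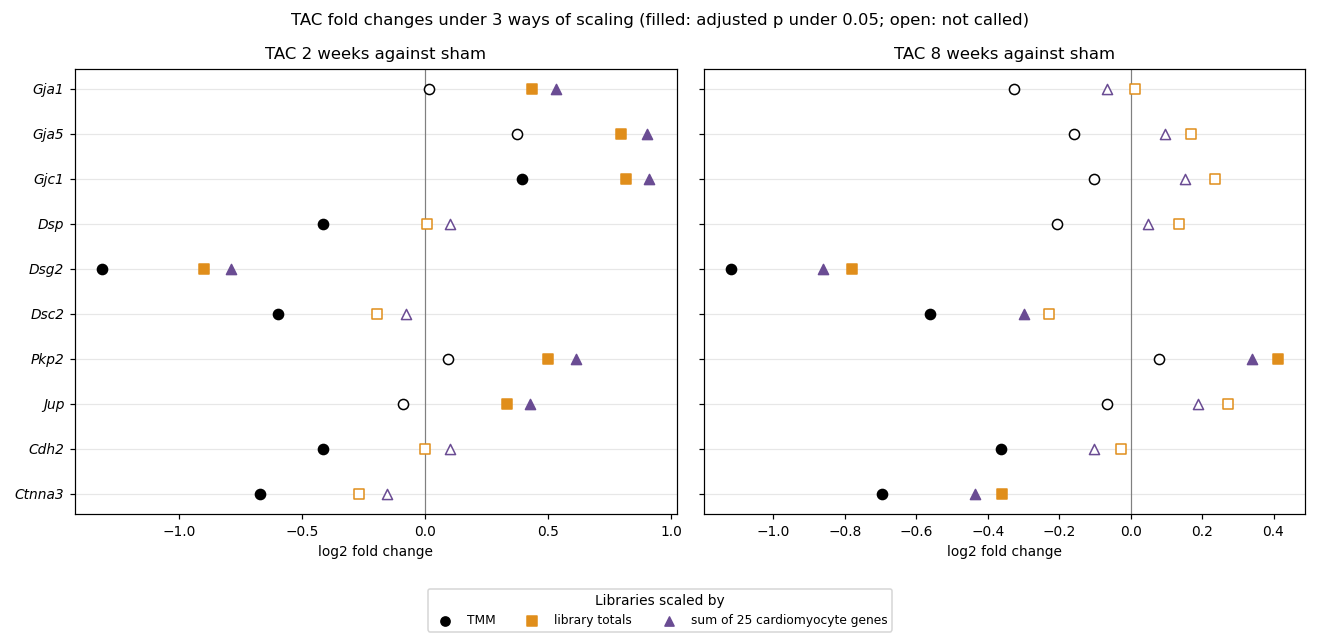
Log2 fold changes of the 10 genes at 2 weeks (left) and 8 weeks (right) of TAC, with libraries scaled by TMM (circles), by library totals (squares) or by the sum of 25 cardiomyocyte genes (triangles); filled symbols passed an adjusted p of 0.05. Dsg2 is left of 0 and filled under all 3 scalings at both stages, while Dsp and Cdh2 at 2 weeks are left of 0 with TMM and at or right of 0 with the others.

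Whether load and exercise differ was tested as the TAC effect minus the running effect. At 2 weeks the effects differed for 5 genes, all lower with TAC: Dsg2 (-1.58), Ctnna3 (-0.76), Dsc2 (-0.64), Dsp (-0.46) and Cdh2 (-0.41), where 9.56% of genes were called lower and 9.5% higher. For Dsp (edgeR adjusted p = 0.0346) and Cdh2 (edgeR adjusted p = 0.034) the sign turned with library totals (0.06 and 0.08) and with cardiomyocyte genes (0.05 and 0.09). The calls of Dsc2 (-0.16 and -0.12, edgeR adjusted p = 0.59 and 0.498) and Ctnna3 (-0.28 and -0.25, edgeR adjusted p = 0.285 and 0.137) ended under these scalings, and that of Dsg2 held (-1.10 and -1.06). At 8 weeks Dsg2 (-1.37), Ctnna3 (-0.77) and Dsc2 (-0.59) differed, where 5.35% of genes were called lower and 5.74% higher, and Cdh2 did not pass (-0.35, edgeR adjusted p = 0.0682, and 0.06 with library totals). At 8 weeks the Dsc2 call ended under both scalings (-0.19 and -0.34, edgeR adjusted p = 0.52 and 0.117) and that of Ctnna3 with library totals (-0.37, edgeR adjusted p = 0.168), while Dsg2 held (-0.98 and -1.13). Both differences use the same sedentary and running libraries. Between the stages (8-week effect minus 2-week effect) 0 of the 10 passed with edgeR or DESeq2 (2 at an unadjusted p under 0.05), where 0.422% of genes were called lower and 0.933% higher. The Dsg2 effects differed by 0.20 (95% interval -0.11 to 0.51) and those of Dsp by 0.22 (-0.15 to 0.59), so the loss of the Dsp call at 8 weeks is not shown to be a change between stages. Gja5 (-0.53, interval -1.01 to -0.05) and Gjc1 (-0.49, interval -0.91 to -0.08) had the largest differences, with edgeR adjusted p of 0.214 and 0.184.

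The sham groups were compared because their levels set the TAC differences. With edgeR or DESeq2 0 of the 10 passed (2 at an unadjusted p under 0.05), where 1.44% of 13656 genes were called lower and 2.2% higher at 8 weeks. Dsp (log2 0.27, edgeR adjusted p = 0.111) and Pkp2 (0.21, edgeR adjusted p = 0.142) read higher in all 4 of the 8-week shams than in any 2-week sham, as did 8.57% of the 10398 genes with a mean of at least 2 CPM. Groups at the 2 TAC stages did not overlap with their shams for 5 genes at 2 weeks, all lower, and for 4 at 8 weeks, all lower, beside 19.8% and 16.1% of the 10398 genes that were lower without overlap.

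Other genes of the disc moved in both directions. Of 14 further desmosome genes 4 were expressed enough to test, and after 2 weeks 1 was higher, Des (log2 0.44), which encodes the desmin filaments that desmoplakin holds, and 1 lower, the plakin Ppl (-1.60). After 8 weeks 2 were higher, Des (0.58) and Perp (0.39), and Ppl was lower (-1.57). Ppl at 2 weeks and Perp are named after their values were seen. Des was called higher under all 3 scalings at both stages. Of 21 further adherens junction genes 18 were tested, with 7 higher and 4 lower at 2 weeks and 5 and 2 at 8 weeks. Cdh11, a cadherin of fibroblasts, was higher (1.06 and 0.72), as was the actin crosslinker Actn1 at 2 weeks (edgeR adjusted p = 0.000389). αE-catenin (Ctnna1) was lower at both stages (-0.46 and -0.41), but with cardiomyocyte genes as the scale its 2-week value was 0.07. Among 34 tested scaffold and channel genes, 8 were higher and 14 lower at 2 weeks and 9 and 6 at 8 weeks. With library totals these 34 counted 16 higher and 4 lower at 2 weeks and 18 and 2 at 8 weeks.

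Among the disc scaffolds, the actin-binding Xirp2 had the largest increase (log2 1.81, SE 0.18, edgeR adjusted p = 1.29e-05 at 2 weeks and 1.98, SE 0.20, edgeR adjusted p = 9.37e-05 at 8 weeks), and Nrap, which anchors myofibrils at the disc, rose at 8 weeks (0.62). The potassium channel gene Kcnd2 fell at both stages (-1.06 and -1.36), and was called lower under the other scalings too. The ankyrins Ank2 (-0.65) and Ank3 (-0.72) also fell at 2 weeks, and neither was called when cardiomyocyte genes set the scale. Tjp1, Vcl, Xirp1, Cdh5 and Pkp4 passed at neither stage with TMM, though at 2 weeks Tjp1, Vcl, Xirp1 and Cdh5 were called higher under both other scalings. Of 20 further connexins and pannexins 3 had counts enough to be tested. Gja3, named after its values were seen, was lower (-0.92 and -0.70), a call that neither other scaling made. The arterial connexin Gja4 rose at 2 weeks (0.46), and Panx1, a channel that releases ATP, rose at both stages (2.11 and 2.75) from 0.322 to 1.05 CPM in the 2-week shams to 2.04 to 4.88 after TAC, and from 0.350 to 0.650 to 2.63 to 4.59 at 8 weeks (n = 4). None of these genes was called after running.

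For the 4 members with the widest range of group means, the genes with the most similar profile over the 6 group means were found among 10398 genes, by the root mean square distance of centred log2 levels. For Dsg2 these were Lamb3 (distance 0.06), a laminin chain, Pdp2 (0.08), a phosphatase that activates pyruvate dehydrogenase, and Camk2a (0.08), a calcium-dependent kinase. Lamb3, for example, read 3.08 and 1.33 CPM in the 2-week sham and TAC means and 3.27 and 1.58 at 8 weeks. For Ctnna3 they were Acadl (0.03), an enzyme of fatty acid oxidation, Lmo7 (0.04) and the transcription factor Sox6 (0.05). For Dsp they were Sun2 (0.03), Aff1 (0.04) and Pvr (0.04), and for Gjc1 Rftn2 (0.04), Dcaf17 (0.05) and Fancm (0.05). With 6 points and shared libraries, these likenesses are a description only.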

How the data were processed

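RNA was measured in 24 heart libraries, 4 in each of 6 groups taken from the sample labels. RNA was extracted with Trizol, and libraries were made with RiboZero and an NEB kit, per the labels' protocols. The authors deposited 1 table of expected counts per gene (Salmon, FastQC and mm9 are named in the submitters' processing notes), written as whole numbers and not normalized. No version, annotation, strand setting or rule for summing transcripts is given in the sources used here. Of its identifiers, 42548 took a symbol from GENCODE M21 (GRCm38), which also gave lengths and overlaps, and 884 did not. A row naming no gene held 0 counts and was left out.

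Counts were tested with edgeR 4.0.16 (R 4.3.3; TMM, filterByExpr on the compared groups, robust quasi-likelihood F test, Benjamini-Hochberg adjustment over all genes tested, threshold 0.05). Differences between effects were contrasts in 1 fit of their groups. Standard errors came from the F statistic and 95% intervals from its degrees of freedom. Alternatives were DESeq2 1.42.0, other scalings, mitochondrial genes left out, no filter, 1 fit of all 24 libraries, a replicate block, a library number covariate and each library left out. The fitting code was tested on simulated data. The 10 genes, the gene lists and the comparisons were chosen with earlier results of these data known. Text names all 10 genes, a fixed set of other junction genes (1 of them is not reported here), up to 3 further called junction genes per TAC comparison and direction with the smallest p, and the 3 genes most alike the 4 members with the widest range of group means.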

Additional observations from a re-analysis of the deposited data

Results flagged for a closer look

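Among 60 sets of 4 libraries (10 genes in 6 groups), 3 held a library whose gap to its nearest neighbour was, as a share of the set's range, above Dixon's 95% limit, and chance alone gives about 1 in 20. Gja1 in the 2-week TAC group had its lowest library, replicate 2, at 116 CPM. Gja1 in the 8-week sham group had its highest library, replicate 2, at 174 CPM. Jup in the sedentary group had its lowest library, replicate 1, at 68.2 CPM.

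The TAC effect differed from the running effect, by edgeR's test of the difference itself, in 8 cases. At 2 weeks these were Dsp (-0.46), Dsg2 (-1.58), Dsc2 (-0.64), Cdh2 (-0.41) and Ctnna3 (-0.76), in log2 units. At 8 weeks they were Dsg2 (-1.37), Dsc2 (-0.59) and Ctnna3 (-0.77). The Dsp and Cdh2 differences at 2 weeks turned sign when libraries were scaled by their totals or by cardiomyocyte genes.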

How the results depend on the processing

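Of 1250 gene values under alternatives other than library totals and cardiomyocyte scaling, 1221 kept their side of the threshold, 24 lost a call and 5 gained one. None changed sign with a call in either fit. Some values called in neither fit did change sign, such as Gja1 after running (-0.10, and 0.11 without running replicate 1). Dsg2, Dsc2 and Ctnna3 kept their TAC calls in all 15 such alternatives at each stage. Leaving out 1 library gave 0 to 1 higher and 4 to 5 lower calls among the 10 genes for TAC at 2 weeks, 4 lower at 8 weeks, 3 to 5 lower for the 2-week TAC effect minus the running effect, and 3 to 4 lower for the 8-week one. In the 2-week difference Dsp lost its call without sedentary replicate 1 or 3, running 2 or 3, sham 1 or 4 or TAC 2 (edgeR adjusted p up to 0.0914), and Cdh2 without sedentary 1 or 4, running 2 or 3, sham 1, 2 or 4 or TAC 1 or 2 (up to 0.0984). With no filter on low counts, 3 were lower there.

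With library totals and with cardiomyocyte scaling, TAC at 2 weeks gave 5 higher and 1 lower under both. TAC at 8 weeks gave 1 higher under both (Pkp2), and 2 and 3 lower. The 2-week difference from running gave 3 and 4 higher, and 1 lower under both, and the 8-week one 1 and 2 lower. The 8-week effect minus the 2-week effect gave 1 lower (Gjc1) with cardiomyocyte scaling. Values that turned sign with a call in either fit (totals, then cardiomyocyte) were, at 2 weeks, Dsp (0.0086, 0.1012), Jup (0.3315, 0.4250) and Cdh2 (0.0007, 0.1016). In the 2-week difference from running they were Dsp (0.0570, 0.0453), Cdh2 (0.0827, 0.0928) and Jup (0.479, not called, and 0.4556). Some values called in neither fit also turned. Among them at 8 weeks were Dsp (0.1352, 0.0482), Jup (0.2714, 0.1896), Gja5 (0.169, 0.097), Gjc1 (0.237, 0.1532) and, with totals only, Gja1 (0.013). In the 8-week difference from running Cdh2 turned with totals (0.0564). The shift of the median of all genes, given above, is part of these moves.

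Same-numbered libraries did not deviate together in every pair (correlations from -0.347 to 0.536, and from 0.065 to 0.536 between running and sedentary), so the numbers were not taken as pairs. With the replicate number as a block, members called were 1 higher and 5 lower at 2 weeks, 5 lower at 8 weeks (Gja1 added, -0.31, edgeR adjusted p = 0.025), 5 and 4 lower against running (Cdh2 added, adjusted p = 0.0485), and 0 otherwise. For Gja1 after running the block gave -0.15 (SE 0.08, edgeR adjusted p = 0.673), against an SE of 0.34 without it. Over all genes the block gave 25 higher and 22 lower for running and 480 and 176 between stages. DESeq2 gave 416 and 205 between stages and 522 and 341 between shams, and called Cdh2 in the 8-week difference from running (adjusted p = 0.0246). Calls over all genes, higher and lower, with totals and then cardiomyocyte scaling, were 14 and 16 then 26 and 902 between stages, 4506 and 214 then 6019 and 303 for the 2-week difference from running, 3028 and 170 then 2074 and 308 for the 8-week one, and 111 and 252 then 102 and 219 between shams. Between shams, no filter gave 396 and 372, and 1 fit of all libraries 444 and 300. The cause of each move was not tested. Of 36 connexin shares, 27 moved beyond 1 SD per kilobase.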

Other observations

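Beside the junction genes, lists of cell type markers moved after TAC. Of 12 tested atrial genes 3 were higher and 2 lower at 2 weeks, and 2 and 2 at 8 weeks, with the summed level at 293 to 424 CPM in the 2-week shams and 860 to 1250 after TAC. That sum does not stand for each gene of the list. Sln (0.0358 to 1.58 and 0.511 to 2.16 CPM), Myl7 (1.25 to 5.92 and 1.57 to 4.81) and Myl4 (3.15 to 8.97 and 4.82 to 10.0) overlapped between these groups. Of 12 smooth muscle and pericyte genes 6 were higher and 1 lower at 2 weeks, and 4 and 1 at 8 weeks. Of 14 endothelial genes 7 were higher at 2 weeks and 0 at 8 weeks, where the summed levels were 531 to 708 CPM in sham and 596 to 623 after TAC. Of 4 tested epicardial genes 2 were higher at each stage. At 8 weeks 9 of 14 fibroblast genes and 10 of 12 macrophage genes were higher, and 0 of either list lower. Of 11 tested conduction genes 2 were higher and 3 lower at 2 weeks, and 0 and 3 at 8 weeks. Blood genes were not called at 2 weeks (0 of 6), and 2 of 5 were higher at 8 weeks.

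Counts of Ctnna3 per 100 counts of Ctnna1 averaged 19.8 in sedentary libraries (18.3 to 21.0, n = 4) and 21.4 in running libraries (21.0 to 22.0, n = 4). Other junction genes that were higher in the 8-week than in the 2-week shams were Nrap (0.51), Pkp4 (0.39), Nectin1 (1.08) and Arvcf (0.65), in log2 units by edgeR.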
